A study of Mus musculus with 4 samples.

Results

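Genes of the semaphorin signalling family were followed in sorted bone marrow monocytes of mice. They are the semaphorins Sema4a, Sema4b, Sema4c, Sema4d and Sema7a, the plexins Plxnb2, Plxnc1 and Plxnd1, and the neuropilins Nrp1 and Nrp2, 10 of the 31017 gene symbols in each count table. The members were chosen by symbol, with no threshold, when the counts of these libraries and their differences with age were already known. Their values are therefore a description, and an adjusted p given for a member only places it in the fit over all genes. Bulk RNA sequencing had been done on flow-sorted monocytes of wild-type C57BL/6 mice aged 18 months (2 libraries, called aged) and 3 months (2 libraries, called young). Every library carries the label atherosclerosis as its disease, without a statement of what was done to the animals. Whether same-age libraries stem from separate mice or from pools is not labelled. A p-value therefore sets an age difference only against the scatter within the ages of these 4 libraries, estimated with the help of all tested genes. That scatter may be technical.

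Semaphorins are secreted or membrane-bound proteins that share a sema domain and were first studied as guidance signals for growing axons. Plexins are their main receptors and carry a cytoplasmic domain that inactivates small GTPases of the Ras and Rap type, which lowers integrin adhesion and reshapes the actin skeleton. Neuropilins have no such domain and act as co-receptors, for class 3 semaphorins together with plexins and for vascular endothelial growth factors together with their receptor kinases. In the immune system class 4 semaphorins on leukocytes act on T and B lymphocytes, and semaphorins and plexins take part in the migration of myeloid cells.

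Among the 10 members, the age difference that passed in the fit over all genes was that of Sema4b, which was 1.93-fold lower in aged monocytes. The abundant members, namely Sema4a and Sema4d among the ligands, Plxnb2 among the receptors and Nrp1 among the co-receptors, differed between the ages by less than 0.10 on the log2 scale. Besides Sema4b, the members Sema4a, Sema7a, Plxnc1 and Plxnd1 had both aged libraries below both young ones without passing the threshold of an adjusted p of 0.05, an arrangement that 25.7% of all tested genes showed.

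The sequences upstream of 4 members are shown because they are the ligand that passed (Sema4b), the ligand with the largest measured difference (Sema7a), and the most abundant ligand and receptor (Sema4a and Plxnb2). RefSeq windows on GRCm38.p6 matched all 10 members by symbol. The window before the most upstream RefSeq start of each gene is printed 5′ to 3′ on the gene's own strand, with matches to GAGGAA or its reverse complement in capitals, the core bound by ETS factors of the PU.1 type. The Sema4b run stops where its first GENCODE exon begins.
Sema4b (chr7:80186620-80186840, plus strand): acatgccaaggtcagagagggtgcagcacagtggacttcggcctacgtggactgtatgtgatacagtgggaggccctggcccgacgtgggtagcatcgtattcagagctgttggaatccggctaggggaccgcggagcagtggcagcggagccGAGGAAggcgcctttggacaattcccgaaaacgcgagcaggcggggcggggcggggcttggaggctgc
Sema7a (chr9:57939862-57940111, plus strand): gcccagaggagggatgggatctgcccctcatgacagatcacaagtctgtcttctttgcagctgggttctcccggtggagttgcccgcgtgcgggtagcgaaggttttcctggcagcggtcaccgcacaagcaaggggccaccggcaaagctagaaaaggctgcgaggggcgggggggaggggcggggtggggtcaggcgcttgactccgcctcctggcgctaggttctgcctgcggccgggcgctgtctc
Sema4a (chr3:88461183-88461432, minus strand): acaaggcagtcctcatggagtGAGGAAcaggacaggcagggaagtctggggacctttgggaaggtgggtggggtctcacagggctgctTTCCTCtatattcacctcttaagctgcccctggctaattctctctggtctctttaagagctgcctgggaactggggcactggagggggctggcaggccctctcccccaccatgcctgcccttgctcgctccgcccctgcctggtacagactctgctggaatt
Plxnb2 (chr15:89180789-89181038, minus strand): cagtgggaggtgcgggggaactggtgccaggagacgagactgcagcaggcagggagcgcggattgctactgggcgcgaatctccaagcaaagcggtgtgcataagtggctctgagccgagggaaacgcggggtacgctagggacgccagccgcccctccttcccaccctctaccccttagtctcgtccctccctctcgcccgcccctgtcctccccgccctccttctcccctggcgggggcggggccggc
Counted over the 250 bases before the start, the Sema4b window held 20 CpG dinucleotides, that of Sema7a 17 and that of Plxnb2 20, whereas that of Sema4a held 2. The capitals mark 1 match for Sema4b and 2 for Sema4a, and there were 0 for Sema7a and for Plxnb2. Of 32817 RefSeq windows of the same length, 23.3% held this core on either strand. The GC box GGGCGG, which 32.7% of windows held on either strand, had 2 matches for Sema4b, 2 for Sema7a, 1 for Sema4a and 4 for Plxnb2. TATAAA, held by 12.4% of windows, matched in none of these 4. A match describes letters in the window, and the counts, which are summed per gene, do not show which start the monocytes used.

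The libraries held between 20159129 and 34278754 counts, and 12035 genes passed the filter on low counts, all 10 members among them. Of the tested genes 5.77% had an adjusted p under 0.05 for age, 2.87% as higher and 2.89% as lower in aged. Levels are given as CPM, the usual unit of counts relative to the library size, here after TMM scaling. Monocyte transcripts were abundant, with the lysozyme gene Lyz2 at 34700 to 34800 CPM in aged and 32700 to 35200 CPM in young libraries and Fn1 at 3090 to 3870 and 4440 to 4600 CPM. Transcripts of neutrophil precursors were plentiful too, with S100a8, which monocytes also express, at 6080 to 6360 CPM in aged and 7890 to 8550 CPM in young libraries, and Ngp at 4850 to 5070 and 3080 to 3140 CPM. Of 10 neutrophil-lineage markers 2 were higher in aged (Ngp and Ltf) and 4 lower (Elane, Mpo, S100a8 and Cxcr2). Of 11 markers of non-classical monocytes 8 were higher in aged, and the list summed to 1780 to 1920 CPM in aged and 1310 to 1390 CPM in young libraries, most of it from Itgal and Cx3cr1. Of 10 classical monocyte markers 4 were lower and 1 was higher. Of 8 tested B-lineage markers 4 were higher, with a sum of 53.7 to 57.8 CPM in aged and 32.3 to 34.5 CPM in young libraries, led by Cd79b and Cd79a. Of 9 dendritic cell markers 2 were higher in aged (Flt3 and Itgax), of 10 plasmacytoid dendritic cell markers 1 (Spib), of 9 marrow macrophage markers 3 (C1qb, C1qc and Axl) and of 8 erythroid markers 1 (Car2), with 0 lower in each list. Among the tested markers of T and natural killer cells, of endothelial and stromal cells and of megakaryocytes 0 passed by edgeR, DESeq2 or limma-voom, where at an unadjusted edgeR p under 0.05 the first list had 1 lower, the second 1 higher and 1 lower, and the third 2 higher. Markers of dendritic cells (led by Cd24a and Cd209a) summed to 557 to 575 CPM in aged and 558 to 580 CPM in young libraries, those of plasmacytoid dendritic cells (Tcf4, Bst2) to 149 to 151 and 139 to 140 CPM, those of T and natural killer cells (Nkg7, Cd3d) to 48.0 to 49.4 and 50.5 to 58.2 CPM, and those of marrow macrophages (Adgre1, Axl) to 362 to 364 and 313 to 321 CPM. Erythroid markers (Hbb-bs, Hba-a1) summed to 340 to 349 CPM in aged and 309 to 340 CPM in young libraries, endothelial and stromal ones (Pecam1, Pdgfrb) to 18.7 to 19.1 and 19.5 to 21.6 CPM, and megakaryocyte ones (Itga2b, Ppbp) to 3.59 to 3.77 and 1.56 to 2.32 CPM, with Gp1bb at 0 counts. Of 12 immediate early and heat shock genes, listed as a sign of cell handling, 11 were higher in aged, with a sum of 3250 to 3380 CPM against 1480 to 1520 CPM and Zfp36 and Junb as the most abundant. Nr4a1, higher in aged, is counted both here and among the non-classical monocyte markers. The part of these shifts in the values below was not tested, and in bulk libraries fewer cells of a type and less RNA per cell cannot be told apart.

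**Figure D1:**
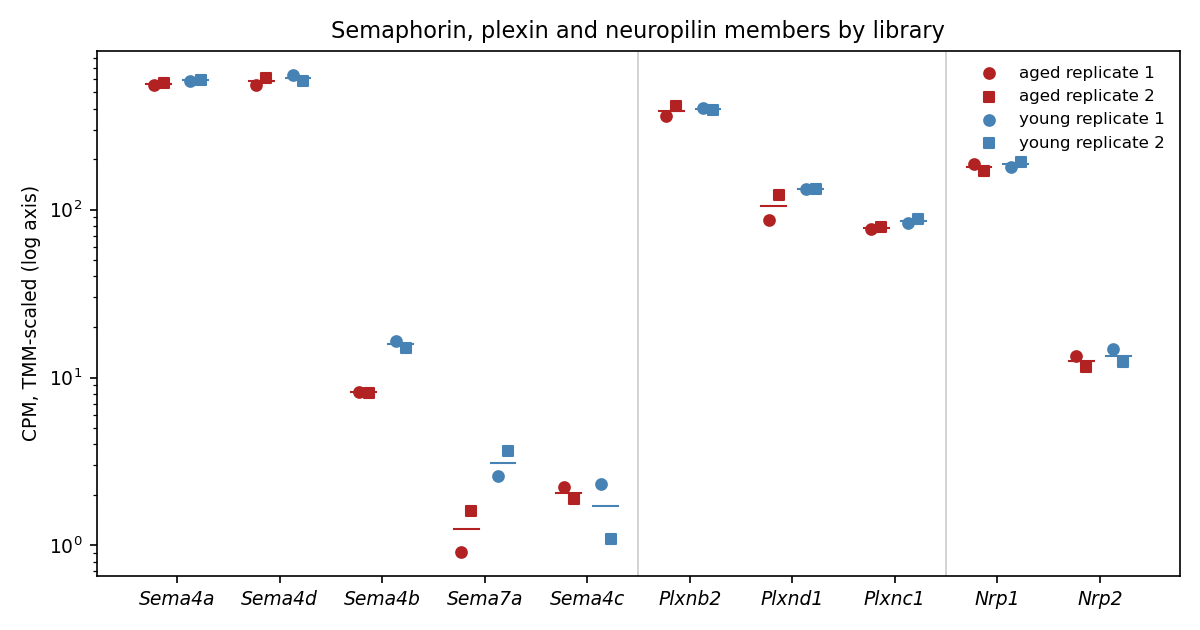
CPM of each member in each library (log axis), with aged libraries in red left of young ones in blue; points are single libraries and short lines the mean of each group. Sema4b at 8.10 and 8.25 CPM in aged lies well under 15 and 16.6 CPM in young libraries, while Sema4a, Sema4d, Plxnb2 and Nrp1 sit at nearly the same height in both ages.

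The members spanned a wide range of levels. Scaled per length of exon (TPM, counts per kilobase of exon relative to their sum over all genes), the mean over the 4 libraries was 306 TPM for Sema4a, 224 for Sema4d, 146 for Plxnb2, 53.7 for Nrp1, 46.7 for Plxnd1, 28.2 for Plxnc1, 6.11 for Sema4b, 3.17 for Nrp2, 1.91 for Sema7a and 1.18 for Sema4c. In this order the libraries of neighbours overlapped for Nrp1 and Plxnd1, for Nrp2 and Sema7a, and for Sema7a and Sema4c, and did not overlap for the other neighbours. Sema4a stood at rank 456 and 459 in aged and 437 and 427 in young libraries among 30416 genes with a known length. Sema4c, at the other end by the mean, stood at rank 10543 and 10695 in aged and 10463 and 11362 in young libraries. In aged replicate 1 Sema7a stood lower, at rank 11243. The 2 leading ligands held nearly all of the semaphorin signal, Sema4a with 58.0% and 56.2% of the summed TPM of the 5 semaphorins in aged and 55.4% and 57.8% in young libraries, and Sema4d with 40.8% and 42.6% in aged and 42.4% and 40.1% in young libraries. Sema4b took 0.828% and 0.769% of that sum in aged and 1.5% and 1.39% in young libraries.

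Of the 10 members 1 was called lower in aged and 0 higher, where all tested genes gave 2.89% and 2.87%. Without young replicate 1 the log2 change of Sema4b was -0.87, and without aged replicate 2 those of Sema7a and Plxnd1 were -1.74 and -0.60. These fits leave 1 library in a group, and the calls over all genes moved in them too. At an unadjusted edgeR p under 0.05, 0 members were higher and 3 lower, a limit for which all genes were not counted. DESeq2 and limma-voom each called 0 members higher and 1 lower. Over all genes they called 327 and 394 higher and 355 and 415 lower. The median log2 change of the members was -0.096, against -0.004 over all tested genes. Negative values numbered 9 of the 10, against 6100 of 12035 over all tested genes. In 5 members both aged libraries lay below both young ones, which was so for 25.7% of all tested genes. Since the members were picked with the age differences known, nothing is read from these counts.

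Sema4b encodes a transmembrane class 4 semaphorin (chromosome 7, 80186841 to 80226527, plus strand). It had 207 and 176 counts in aged libraries, against 574 and 298 counts in young ones. After scaling this was 8.25 and 8.10 CPM in aged and 16.6 and 15 CPM in young libraries. The aged libraries nearly coincided and lay below both young ones, somewhat further below young replicate 1. Aged monocytes averaged 8.18 ± 0.111 CPM and young ones 15.8 ± 1.18 CPM (SD, n = 2 per group). The log2 change was -0.95 ± 0.14 (standard error; approximate 95% interval -1.27 to -0.64; edgeR adjusted p = 0.00382). It kept its sign with each library left out, between -1.02 and -0.87, but leaving out young replicate 1 ended the call (adjusted p = 0.05, just over the threshold; range over all alternatives 1.25e-07 to 0.05).

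Sema7a encodes a semaphorin held to the membrane by a lipid anchor, which binds plexin-C1 and the integrin formed by the alpha-1 and beta-1 chains (chromosome 9, 57940112 to 57962865, plus strand). It had 23 and 35 counts in aged libraries, against 89 and 73 counts in young ones. That is 0.917 and 1.61 CPM in aged and 2.58 and 3.66 CPM in young libraries, with both aged libraries below both young ones and a wide gap within each age. The log2 change was -1.30 ± 0.37 (approximate 95% interval -2.13 to -0.46; edgeR adjusted p = 0.0723), the largest in size of the 10 and the second least precise. Without aged replicate 2 it was -1.74 and passed (adjusted p = 0.0456; range over all alternatives 0.00239 to 0.298), and without aged replicate 1 it was -0.93. With at most 89 counts in a library, the depth limits the precision of this value.

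Sema4a, a class 4 semaphorin of myeloid and dendritic cells that acts on T cells and binds plexins of the B type and plexin-D1 (chromosome 3, 88435959 to 88461182, minus strand), was the most abundant member. It stood at 553 and 566 CPM in aged and 586 and 595 CPM in young libraries, a small gap with no overlap. The log2 change of -0.08 ± 0.052 did not pass (approximate 95% interval -0.19 to 0.04; edgeR adjusted p = 0.431). Sema4d, known as CD100, is shed from leukocytes and binds plexins of the B type and, on lymphocytes, CD72 (chromosome 13, 51685529 to 51793747, minus strand). It stood at 553 and 610 CPM in aged and 637 and 587 CPM in young libraries, which overlapped. Its log2 change was -0.07 ± 0.065 (approximate 95% interval -0.22 to 0.07; edgeR adjusted p = 0.562). For both ligands the interval leaves room for a change of at most about 0.22 on the log2 scale, with at least 11691 counts per library behind each value.

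Sema4c, a ligand of plexin-B2 (chromosome 1, 36548639 to 36558349, minus strand), was the least abundant of the 10 per length in the mean over all libraries. It had 56 and 41 counts in aged libraries, against 80 and 22 counts in young ones, or 2.23 and 1.89 CPM in aged and 2.32 and 1.10 CPM in young libraries. The young libraries stood on both sides of the aged ones, and the log2 change of 0.22 ± 0.39 (approximate 95% interval -0.65 to 1.09; edgeR adjusted p = 0.793) turned to -0.17 without young replicate 2. Its exons overlap on the opposite strand those of D430040D24Rik over 334 bases, and no source used here gives the strand setting of the counting, so reads of these genes cannot be told apart there.

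**Figure D2:**
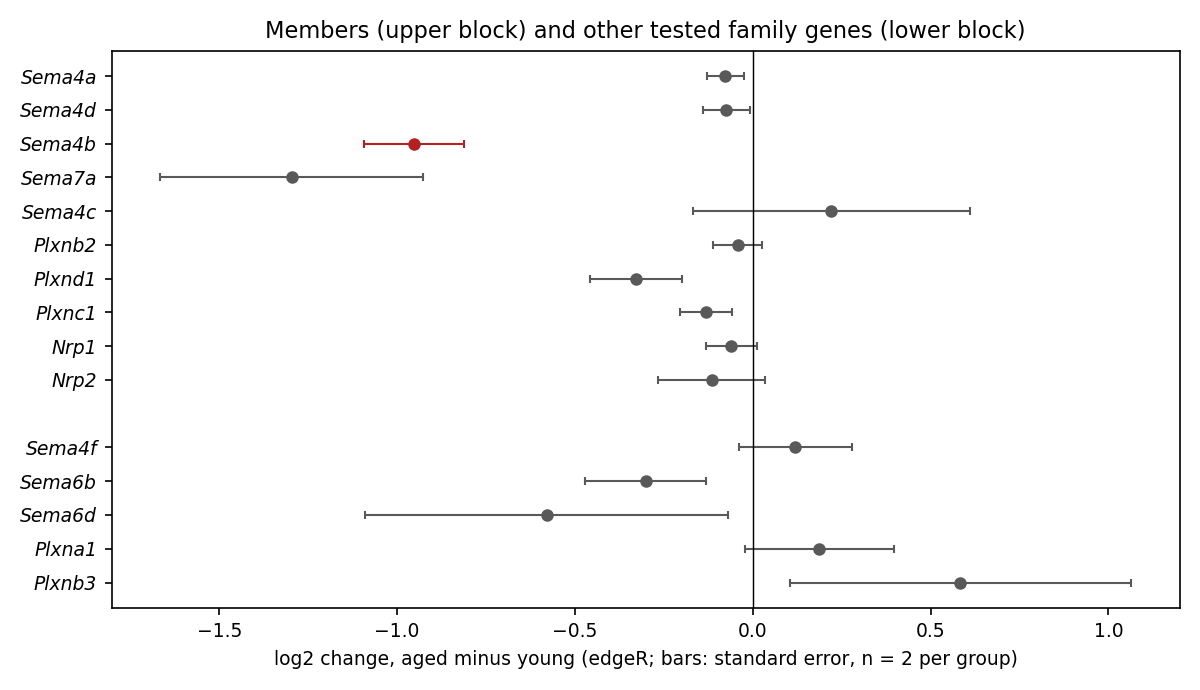
Log2 change of each member (upper block) and of the other tested semaphorins and plexins (lower block), aged minus young, as points with the standard error as bars (n = 2 per group); red marks an edgeR adjusted p under 0.05 over all genes. Sema4b at -0.95 is the red point, Sema7a at -1.30 lies further left with a wider bar, and the abundant members lie close to 0.

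Among the receptors Plxnb2, which binds class 4 semaphorins, led (chromosome 15, 89155549 to 89180788, minus strand). It stood at 361 and 413 CPM in aged and 404 and 393 CPM in young libraries, so that the young values lay between the aged ones, and the log2 change was -0.04 ± 0.069 (approximate 95% interval -0.19 to 0.11; edgeR adjusted p = 0.776). Plxnc1, the receptor of Sema7a (chromosome 10, 94790866 to 94944835, minus strand), stood at 77.0 and 79.0 CPM in aged and 83.3 and 87.6 CPM in young libraries. Here the aged libraries lay just below the young ones, and the log2 change of -0.13 ± 0.073 did not pass (edgeR adjusted p = 0.334). Ligand and receptor of this pair thus each had both aged libraries below both young ones, which was so for 25.7% of all tested genes. The differences were 2.45-fold for Sema7a and 1.10-fold for Plxnc1, and neither passed.

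Plxnd1 encodes the receptor of Sema3e, which also binds Sema4a (chromosome 6, 115954811 to 115995005, minus strand). It had 2182 and 2683 counts in aged libraries, against 4560 and 2633 counts in young ones. The CPM were 87.0 and 123 in aged and 132 and 132 in young libraries, with the 2 young values almost equal and aged replicate 1 far below the rest. The log2 change was -0.33 ± 0.13 (approximate 95% interval -0.61 to -0.05; edgeR adjusted p = 0.17). The gap between the aged libraries was 1.42-fold, a gap reached by 1.08% of the 3986 genes with a mean of at least 50 CPM, whose median gap was 1.05-fold. Without aged replicate 2 the change was -0.60 and passed (adjusted p = 0.00111; range over all alternatives 1.02e-05 to 0.611), and without aged replicate 1 it was -0.10. Of the summed TPM of the 3 plexins Plxnd1 made up 17.6% and 21.2% in aged and 22.5% and 22.8% in young libraries.

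Nrp1, the co-receptor for Sema3a and for vascular endothelial growth factor A (chromosome 8, 128358604 to 128503363, plus strand), stood at 188 and 170 CPM in aged and 179 and 193 CPM in young libraries. These overlapped, and the log2 change was -0.06 ± 0.071 (approximate 95% interval -0.22 to 0.10; edgeR adjusted p = 0.672). Nrp2, the co-receptor for Sema3f and for vascular endothelial growth factor C (chromosome 1, 62703285 to 62818695, plus strand), was low, at 13.4 and 11.6 CPM in aged and 14.7 and 12.3 CPM in young libraries. Its log2 change of -0.12 ± 0.15 did not pass either (edgeR adjusted p = 0.701). Per length, Nrp1 exceeded Nrp2 by 16.9-fold and 17.7-fold in aged and by 14.8-fold and 19.0-fold in young libraries. The sign of Plxnb2 and of both neuropilins turned with 1 library left out, as the plot of members with each library left out shows.

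**Figure D3:**
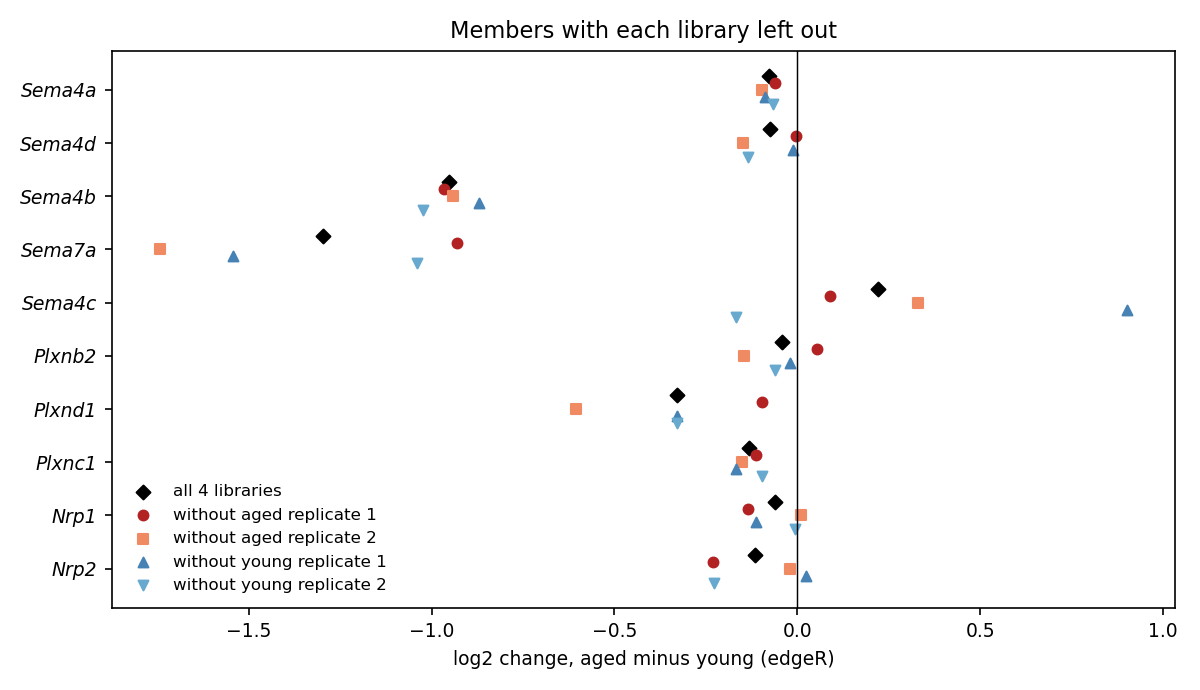
Log2 change of each member, aged minus young, in the edgeR fit of all 4 libraries (black diamonds) and with each library left out in turn (coloured points). Sema4b stays between -1.02 and -0.87, Plxnd1 moves between -0.60 without aged replicate 2 and -0.10 without aged replicate 1, and Sema4c spreads from -0.17 to 0.90.

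Most other genes of the family were silent or nearly so in these monocytes. Of 21 further semaphorins and plexins 16 did not pass the filter on low counts, and 6 of these, Sema3a, Sema3d, Sema3e, Sema5b, Sema6a and Plxnb1, had 0 counts in every library, where a count of 0 allows up to 0.120 and 0.138 CPM in aged and 0.0868 and 0.151 CPM in young libraries. No class 3 semaphorin, the secreted ligands of which most bind neuropilins, exceeded 6 counts in any library. Plxnb1, the best known receptor of Sema4d, was thus not detected, while Plxnb2 was abundant. Further low genes were Plxna3, with 27 and 2 counts in aged and 14 and 2 counts in young libraries, and Plxna4, with 0 and 5 counts in aged and 17 and 4 counts in young libraries. These limits cover counting error only. Exons of Plxnb1 and Plxna4 overlap other genes on the opposite strand over 257 and 110 bases, where the strand setting is unknown as for Sema4c.

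Of the 5 other family genes that were tested 0 passed in either direction, with 0 at an unadjusted edgeR p under 0.05 and 0 calls by DESeq2 and by limma-voom. Sema4f, a further class 4 semaphorin, stood at 13.2 and 15.7 CPM in aged and 11.6 and 15.2 CPM in young libraries. Sema4b had 8.25 and 8.1 CPM in aged and 16.6 and 15 CPM in young ones, so Sema4f lay above it in both aged libraries. The log2 change of Sema4f was 0.12 ± 0.16 (edgeR adjusted p = 0.718). Sema6b, a transmembrane class 6 ligand of plexins of the A type, stood at 9.45 and 13 CPM in aged and 13.6 and 14.0 CPM in young libraries (-0.30 ± 0.17; edgeR adjusted p = 0.335), with aged replicate 1 the low one. Sema6d, a ligand of plexin-A1, was near the filter, with 13 and 11 counts in aged and 27 and 15 counts in young libraries (-0.58 ± 0.51; edgeR adjusted p = 0.563). Plxna1 stood at 5.74 and 7.96 CPM in aged and 6.11 and 5.87 CPM in young libraries (0.19 ± 0.21; edgeR adjusted p = 0.658). Its exons overlap on the opposite strand those of Gm26811 over 970 bases, with the strand setting unknown as for Sema4c. Plxnb3 had 41 and 28 counts in aged and 22 and 28 counts in young libraries (0.58 ± 0.48; edgeR adjusted p = 0.534). Trem2 and its adaptor Tyrobp, which associate with plexin-A1 on myeloid cells, gave log2 changes of 0.21 ± 0.099 and -0.05 ± 0.051 (edgeR adjusted p = 0.252 and 0.634).

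The wider pathway was described by 58 genes, of which 49 were tested. Of these 5 rose and 3 fell in aged monocytes, against 2.87% and 2.89% of all tested genes, and their median log2 change was 0.04. Groups did not overlap in 29 of the 49, against 51.6% of all tested genes. Without young replicate 1, the deepest library, fewer of them passed, as was so over all genes in that fit with 1 young library.

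Among 11 tested receptors and co-receptors outside the plexin and neuropilin families 2 fell and 0 rose, against 2.89% and 2.87% of all tested genes. Met, the receptor kinase of hepatocyte growth factor, which associates with plexins of the B type, had 102 and 101 CPM in aged and 148 and 143 CPM in young libraries. Both aged libraries were far below both young ones (log2 change -0.53 ± 0.065; edgeR adjusted p = 0.00118), and Met passed with each library left out. Itga1, the alpha-1 integrin chain that receives Sema7a together with beta-1, had 89.8 and 76.9 CPM in aged and 123 and 117 CPM in young libraries (-0.53 ± 0.085; edgeR adjusted p = 0.00593). Leaving out young replicate 1 ended the call (adjusted p = 0.0541; range over all alternatives 1.93e-11 to 0.0541). Its partner Itgb1 had 394 and 366 CPM in aged and 325 and 339 CPM in young libraries, higher in both aged ones without passing (0.20 ± 0.059; edgeR adjusted p = 0.0823). Of 5 tested ligands that bind neuropilins or Met 0 passed, with 0 at an unadjusted edgeR p under 0.05 and 0 calls by DESeq2 and by limma-voom. The smallest p there belonged to Vegfc, at 23 and 12 counts in aged and 8 and 8 counts in young libraries (1.28 ± 0.61; edgeR adjusted p = 0.263).

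Among 29 tested genes of signalling below plexins 4 rose and 1 fell, against 2.87% and 2.89% of all tested genes. Rras, a GTPase that plexins inactivate, had 73.5 and 78.0 CPM in aged and 51.4 and 56.1 CPM in young libraries (log2 change 0.50 ± 0.083; edgeR adjusted p = 0.00699). Both aged libraries lay clearly above both young ones. Sh3bp1, a GTPase-activating protein for Rac that takes part in the response to Sema3e through plexin-D1, rose by 0.57 ± 0.12 (edgeR adjusted p = 0.0234), and Pak1, a kinase driven by Rac and Cdc42, by 0.33 ± 0.075 (edgeR adjusted p = 0.0318). Arhgef11, a RhoA exchange factor that docks on plexins of the B type, had 26 and 30.5 CPM in aged and 37.8 and 38.6 CPM in young libraries (-0.44 ± 0.11; edgeR adjusted p = 0.039). The GTPase genes Rac1 and Rhoa gave 0.07 ± 0.051 and 0.13 ± 0.057 (edgeR adjusted p = 0.476 and 0.217). Leaving out young replicate 1 ended all 5 calls, as it did for many calls over all genes. Among them the log2 changes were then 0.435 for Rras, 0.412 for Sh3bp1, 0.328 for Pak1 and -0.452 for Arhgef11. Leaving out aged replicate 2 (0.292) or young replicate 2 (0.326) also ended the call of Pak1. That of Arhgef11 ended when aged replicate 1 (-0.325) or young replicate 2 (-0.425) was dropped.

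Of 4 tested proteases that cut semaphorins 1 rose, against 2.87% of all tested genes. Mmp14, a membrane-bound metalloprotease that sheds human SEMA4D, had 3.51 and 3.82 CPM in aged and 1.01 and 0.903 CPM in young libraries, all aged values lying above the young ones. The log2 change was 1.92 ± 0.32 (edgeR adjusted p = 0.00696), and leaving out young replicate 1 ended the call here too (adjusted p = 0.05, just over the threshold; range over all alternatives 5.95e-07 to 0.05). Adam17, a broad sheddase that also releases Sema4d, had 195 and 188 CPM in aged and 197 and 175 CPM in young libraries, which overlapped (0.04 ± 0.070; edgeR adjusted p = 0.79). Per length the level of Adam17 averaged 76.0 TPM over the 4 libraries and that of Mmp14 1.12 TPM.

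**Figure D4:**
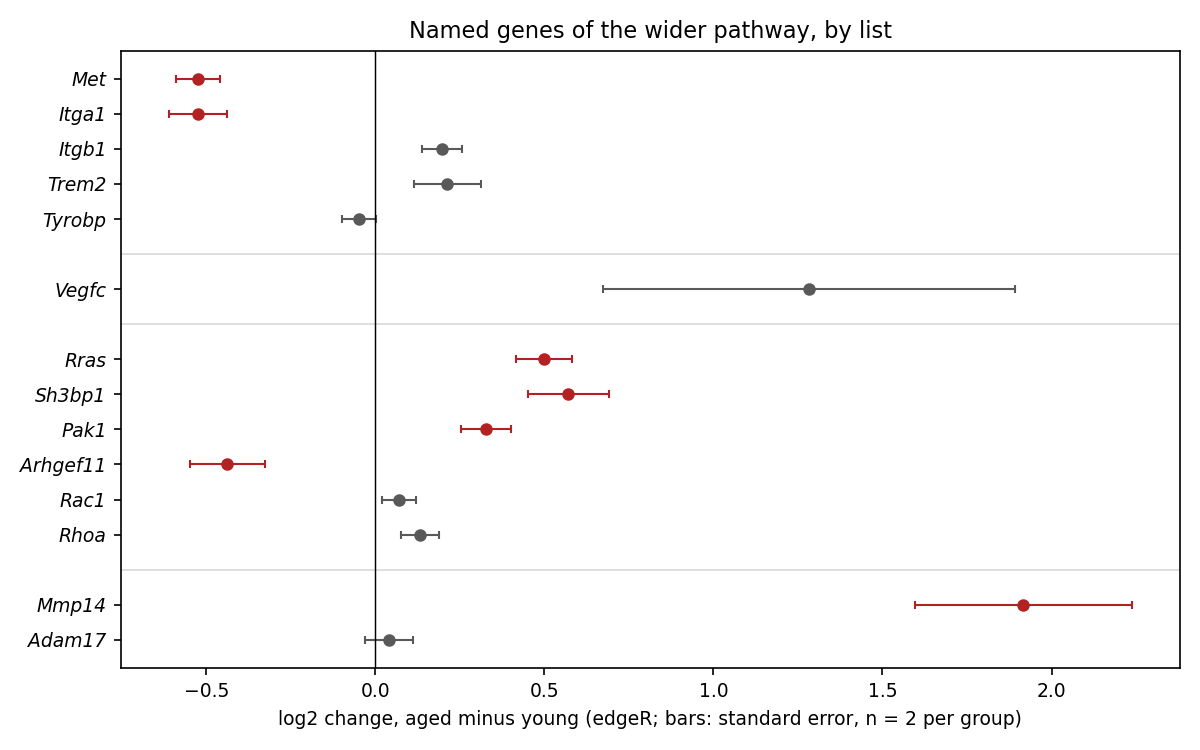
Log2 change of the named pathway genes, aged minus young, with the standard error as bars (n = 2 per group), in blocks from top to bottom for receptors and co-receptors, neuropilin ligands, plexin signalling and proteases; red marks an edgeR adjusted p under 0.05 over all genes. Met, Itga1 and Arhgef11 lie left of 0, between -0.53 and -0.44, and the other red points lie right of 0, from 0.33 for Pak1 to 1.92 for Mmp14.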

How the data were processed

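Messenger RNA of monocytes sorted from bone marrow had been selected with oligo-dT and made into strand-marked libraries, per the labels' protocols. The authors deposited whole-number read counts, unnormalized, in a table for each library. Cutadapt, STAR 2.5.3, HTSeq, DESeq2 and mm10 are listed in the submitters' processing notes without their roles. Which annotation and strand setting the counting used is not given in the sources used here. All 4 tables held the same 31017 symbols in the same order, and 30416 of them matched 1 gene of GENCODE M21 on GRCm38, the assembly of mm10, which gave positions and exon lengths. Replicates differed by more than counting noise (chi-square per gene 10.2 for the aged pair and 13.5 for the young pair), so neither pair looks like 1 library deposited again; this does not show that they came from separate mice.

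Groups come from the titles, and aged libraries were set against young ones. Low-count genes were dropped with filterByExpr (minimum count 10, minimum total 15), scaled by TMM and tested across all genes with the two-sided quasi-likelihood F-test of edgeR 4.0.16 in R 4.3.3, with Benjamini-Hochberg adjustment and a threshold of 0.05. Standard errors are the log2 change divided by the square root of F, and intervals use the fit's degrees of freedom. The alternatives tried were scaling by RLE, by the upper quartile or by library size alone, 2 other filters, DESeq2 1.42.0, limma-voom (limma 3.58.1), the replicate number as a block, a threshold of 0.01 and each library left out, where a lone sample is assumed to vary like the others. Named are all 10 members, the tested genes of the family, up to 4 genes per direction of each pathway list with the smallest p (the smallest p where none passed), 6 pathway genes fixed by name, and the 2 most abundant markers of each list, and, chosen after their values were seen, the passing markers of lists with few calls and the low genes Plxna3 and Plxna4. The members and lists were chosen with earlier results of these data known. A gene that this rule names is not reported here. Promoter windows are RefSeq's.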

Additional observations from a re-analysis of the deposited data

How the results depend on the processing

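The count of all genes moved by over 1.5 times under some alternatives. With no low-count filter 606 genes were higher and 793 lower in aged, with the replicate number as a block 801 and 1016, and at an adjusted p under 0.01 135 and 101, against 346 and 348 in the main analysis. With each library left out the higher genes numbered 116 to 452 and the lower ones 81 to 588. Members lower in aged numbered 1, and 3 with no low-count filter or with the block, where Sema7a (adjusted p = 0.00239 and 0.00546) and Plxnd1 (0.000732 and 1.02e-05) passed as well; with each library left out they numbered 0 to 3. Members higher in aged and other family genes in either direction numbered 0 under all 13 alternatives. Pathway genes higher in aged numbered 8 with the block and 3 at 0.01, and 0 to 6 with each library left out, and the lower ones 1 to 5. Itgb1 passed with no low-count filter (0.0232) and with the block (0.0069). No label pairs the libraries by replicate number. The deviations of the first aged and first young library from their group means correlated at r = 0.0937 across 12035 genes. That single value, in which counting noise takes part, does not decide whether they are paired.

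Signs turned only with 1 library left out, and only in genes that did not pass: Sema4c (-0.17 to 0.90), Plxnb2 (-0.145 to 0.054), Nrp1 (-0.13 to 0.009), Nrp2 (-0.23 to 0.023), Sema4f (-0.074 to 0.316), Plxna1 (-0.065 to 0.408) and Adam17 (-0.044 to 0.131). No scaling turned a sign, and the median log2 change of all genes stayed between -0.007 and 0.008 over the alternatives. The cause of the moves was not tested. Depth limits Sema4c, Sema7a, Sema6d, Plxnb3, Vegfc and Mmp14, which have fewer than 100 counts a library.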
